A study of Homo sapiens with 21 samples.

Results

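Argonaute clusters that fell in SINE, LINE or LTR repeats were described across 3 lists of PAR-CLIP clusters from HK-2 cells. PAR-CLIP cross-links a protein to RNA that carries 4-thiouridine, and a cluster is a short genomic interval in which the recovered reads pile up. Members were clusters placed in an intron or between genes whose repeat annotation named SINE, LINE or LTR. They numbered 5253 of 113103 clusters, and they fell into 3944 distinct places once overlapping clusters on a strand were merged. The AGO2 vehicle list held 2631 of its 56985 clusters in such repeats, the AGO2 cyclosporine A list 1708 of 36812, and the all-Argonaute list 914 of 19306. These counts cover a small part of the genome. The repeat annotation was filled only on chromosome 1 and on chromosome 2 up to 238.2 Mb, so every member lay there, and the denominators below are the intron and intergenic clusters with that annotation: 8239, 5304 and 2871.

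HK-2 is an immortalised line from human proximal tubule epithelium. For PAR-CLIP the cells received 100 µM 4-thiouridine and were cross-linked at 365 nm. One AGO2 group was kept for 24 h in 0.1% ethanol, the vehicle, and the other for 24 h in 5 µg/mL cyclosporine A, an immunosuppressant that injures the tubule. Each AGO2 group had 2 libraries that were pooled in 1 list, and the all-Argonaute list came from 1 sample for which the labels name no treatment. With 1 list per group no difference between lists could be tested, so shares are given with 95% Wilson intervals that cover counting error only. Messenger RNA and miRNA were sequenced after 48 h in vehicle or cyclosporine A, with 4 libraries in each group. The labels do not say whether these were separate cultures. The p-values therefore rest on the variation among the sequenced libraries, some or all of which could be technical.

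Transposable elements are mobile sequences whose remains fill much of the human genome. LINEs such as L1 and the much older L2 encode their own reverse transcriptase, SINEs such as Alu and MIR borrow that of LINEs, and LTR elements are remains of endogenous retroviruses. Copies in introns are transcribed as part of the host gene, some miRNA hairpins arose from them, and Argonaute proteins, loaded with a miRNA, bind RNA that pairs with the miRNA seed (positions 2 to 8).

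Total counts ran from 3965431 to 7041604 in the mRNA libraries and from 6664231 to 9184278 in the miRNA libraries. Of 12 proximal tubule markers, 7 passed the filter on low counts. PAX8 and KRT19 were among the higher ones, whereas LRP2, CUBN, AQP1 and SLC34A1, which mark differentiated proximal tubule, averaged at most 1.00 CPM (counts scaled to library size) in either group. The summed proximal tubule markers reached 1685 to 1766 CPM in vehicle and 2002 to 2138 CPM in cyclosporine A. PAX8 averaged 833 CPM in vehicle and 954 CPM with cyclosporine A, and KRT19 432 and 536 CPM. They held most of this sum, so it says little of the markers near 0. MME averaged 60.3 and 201 CPM, and ANPEP 0.584 and 0.865 CPM. The list did not move as one: CDH16, a kidney cadherin, ran from 45.5 to 55.2 CPM in vehicle and from 2.20 to 4.53 CPM with cyclosporine A, and GGT1, a brush border enzyme, averaged 152 and 99.1 CPM. Fibroblast markers summed to 13.5 to 19.9 CPM in vehicle and 5.13 to 6.67 CPM in cyclosporine A, with COL1A2 at 0, and endothelial and immune markers to at most 0.736 CPM, with PECAM1, PTPRC and CD3E at 0.

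The highest-scoring members are printed here as the top of the lists, not as typical members. Scores are the authors' own, their unit is not given in the sources used here, and they are used only for order within a list. Ranks are counted over lists of unequal length, with 56985, 36812 and 19306 clusters. The first set holds the repeat clusters found in all 3 lists that ranked highest in the AGO2 vehicle list. Capitals mark the bases covered in all 3 lists, the sequences are those given in the AGO2 vehicle list in RNA orientation with T for U, and coordinates are hg19.
L3 in an intron of HHAT, chr1:210739239-210739258, plus strand: tgTGGGTGTAGCTCAGGGGt
L1ME4a between genes, chr2:160145048-160145070, plus strand: aaTGGAATCACTGGGCATAAAGG
L1ME2 between genes, chr1:116445998-116446024, minus strand: aaACATCTCAGTAGATCCAGGAAAAGA
L1ME3E between genes, chr1:25485455-25485477, plus strand: GAACAAAGTCGGTCATAGTGCTT
L1ME3A between genes, chr1:2756220-2756243, plus strand: CTAGCGTTGCATGGAATCACTgtg
MIR between genes, chr1:119021600-119021624, plus strand: aTCCAGGATTATATACCCTGGTAAT
Of these 6, 5 were LINEs and 1 was a SINE. The L3 cluster in HHAT, which encodes hedgehog acyltransferase, had the highest score of any repeat cluster in the AGO2 vehicle list, 14968 (rank 159). It scored 4790 (rank 487) in the AGO2 cyclosporine A list and 335 (rank 1423) in the all-Argonaute list. The L1ME2 cluster stood high in every list, with scores of 8229 (rank 257), 8448 (rank 273) and 3768 (rank 169). The L1ME3A cluster did not: it ranked 286 in AGO2 vehicle, 1770 in AGO2 cyclosporine A and 15525 in all Argonaute.

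The second set holds other clusters among the 3 highest of a class in an AGO2 list, with capitals for the bases covered in both AGO2 lists. All-lower-case sequences had no overlapping cluster in the other AGO2 list.
LTR24C, AGO2 vehicle, chr2:185921922-185921950, plus strand: attttatagaacaatgtagataaggaaaa
LTR1, AGO2 vehicle, chr2:80933874-80933895, plus strand: aggcagtttggctggggcagtt
ERVL-E-int, AGO2 vehicle, chr2:103176722-103176742, minus strand: TGGGGAATATTGGACACTGGT
MIR3, AGO2 vehicle, chr1:56070902-56070922, plus strand: TAGGTCACCGACTTAAAGTTA
MIRb in PADI3, AGO2 vehicle, chr1:17584337-17584361, plus strand: aTTATCTCATCCTGGGGCTGCAGTg
L1ME3B in FMNL2, AGO2 cyclosporine A, chr2:153398098-153398122, minus strand: ttggaggactgaagtggggaaagtc
L2a in DAB1, AGO2 cyclosporine A, chr1:58332023-58332046, minus strand: TATGGTCAGACATCGTGCTAAGtt
MER31-int in PLPPR5, AGO2 cyclosporine A, chr1:99448482-99448502, plus strand: catTTGACCTTGGATTAGGTA
MLT1E in FMNL2, AGO2 cyclosporine A, chr2:153354287-153354307, plus strand: aGTTTGGACATGGGTTAGTCG
MLT1F, AGO2 cyclosporine A, chr2:174920533-174920552, minus strand: GTGGACTGTTTGGTGGAGCT
MIR3, AGO2 cyclosporine A, chr1:102240478-102240504, minus strand: tctttttccgtgactgcgtacctgtga
MIRb in ENAH, AGO2 cyclosporine A, chr1:225833529-225833553, minus strand: GGGTTTGACTCTAGTTTGACATTTa
The 2 top repeat clusters of the AGO2 cyclosporine A list, L1ME3B in FMNL2 (score 12333, rank 210) and MIR3 (12288, rank 211), were not in the AGO2 vehicle list. LTR24C (6075, rank 353) and LTR1 (5281, rank 422), the highest LTR clusters of the AGO2 vehicle list, were not in the AGO2 cyclosporine A list. Of these, L1ME3B (284, rank 1652) and LTR24C (1776, rank 314) were in the all-Argonaute list, and MIR3 and LTR1 were not. ERVL-E-int scored 4447 in vehicle and 1550 with cyclosporine A, the vehicle MIR3 6099 and 934, and MIRb in PADI3 4636 and 6118. The highest score of a repeat cluster in the all-Argonaute list was 252797, in an L1ME3 copy in an intron of SPATA6, singled out after its value was seen. Scores of the lists are not on a known common scale, and no test of such pairs was possible.

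Sequence was often shared between clusters at different places. In the AGO2 vehicle list 1074 of 2631 repeat clusters, 40.8% (interval 39.0 to 42.7%), held a 14-base stretch that also occurred in another cluster of that list. In the AGO2 cyclosporine A list 590 of 1708 did, 34.5% (32.3 to 36.8%). A longer list offers more clusters to match, and the lists held 56985 and 36812 clusters, so the 2 shares are not comparable. These shares depend on the length asked for: a 16-base stretch was shared by 475 vehicle clusters, 18.1% (16.6 to 19.6%), and by 266 cyclosporine A clusters, 15.6% (13.9 to 17.4%). The share was larger at higher scores. With each list cut into 4 bins of score, it was 28.7% in the lowest bin of the vehicle list and 58.8% in the highest, and 71.9% (66.0 to 77.1%) among the 249 repeat clusters in the top 10% of scores, where 45.8% (39.7 to 52.0%) shared 16 bases. In the cyclosporine A list the lowest and highest bins stood at 23.7% and 52.1%. Clusters in the introns and intergenic space outside repeats followed the same order, from 26.6% to 53.5% in vehicle and from 17.7% to 52.6% with cyclosporine A, and no test of a difference from repeats was made. Median length moved with the score and gives more chances of a shared stretch: 19 bases in the lowest bin of vehicle repeat clusters and 21 in the highest.

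**Figure D1:**
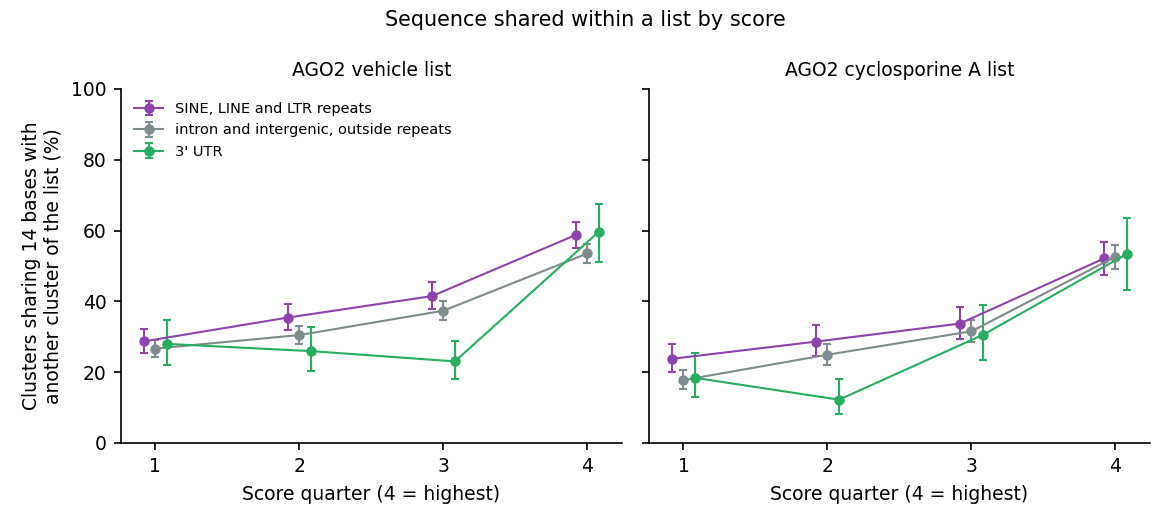
Share of clusters (%) holding a 14-base stretch found in another cluster of the same AGO2 list, by score bin, for repeats, intron and intergenic clusters outside repeats, and 3' UTRs. Points are shares and bars are 95% Wilson intervals; in repeats the share goes from 28.7% to 58.8% in the vehicle list and from 23.7% to 52.1% in the cyclosporine A list.

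Among the sequences printed above, the L3 cluster in HHAT shared 14 bases with 13 other clusters of the vehicle list, LTR1 and MIRb in PADI3 with 8 each, ERVL-E-int with 7, and L1ME3E, L1ME3A and the vehicle MIR3 with 0. A 14-base match to a cluster annotated as ribosomal RNA was found in 14 of 2631 vehicle and 7 of 1708 cyclosporine A repeat clusters, and a match to one annotated as tRNA was found in 9 and 4. These lists give the sequence of the genomic interval and not the reads, so whether the reads of a cluster came from that place in the genome, from another copy of the sequence or from an RNA outside this genome was not tested. The matches above were exact and to annotated clusters of these lists only; near matches to ribosomal RNA or tRNA, human or of microbes, were not searched for. That limit applies to every score and position given here, most of all to the highest scores.

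Repeats held about the same share of intron and intergenic clusters in every list. The share was 31.9% (30.9 to 32.9%) in AGO2 vehicle, 32.2% (31.0 to 33.5%) in AGO2 cyclosporine A and 31.8% (30.2 to 33.6%) in all Argonaute. LINEs made up 1353, 854 and 476 of the members, which is 51.4%, 50% and 52.1%. LTR elements followed with 776, 509 and 265 clusters (29.5%, 29.8% and 28.99%), and SINEs with 502, 345 and 173 (19.1%, 20.2% and 18.9%). The intervals of each class overlapped between all 3 lists.

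L1, the only LINE family that still moves in humans, was the largest family, with 834, 540 and 300 clusters. Most lay in old copies: in the AGO2 vehicle list 621 were in L1M elements, the mammalian-wide subgroups, and 169 in the primate L1P or L1HS subgroups. With cyclosporine A the corresponding numbers were 407 and 105. L2, a LINE family that stopped moving long ago, held 450, 269 and 154 clusters. MIR, the SINE of the same age, held 335, 236 and 115, and Alu, the primate SINE, 159, 104 and 55. Within Alu in the vehicle list, 71 clusters were in AluJ, the oldest branch, 70 in AluS and 11 in AluY, the youngest. LTR clusters came from ERVL-MaLR (317, 208 and 116), ERVL (226, 149 and 70) and ERV1 (204, 129 and 68), and 14 vehicle clusters were in ERVK, the youngest human retrovirus group.

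**Figure D2:**
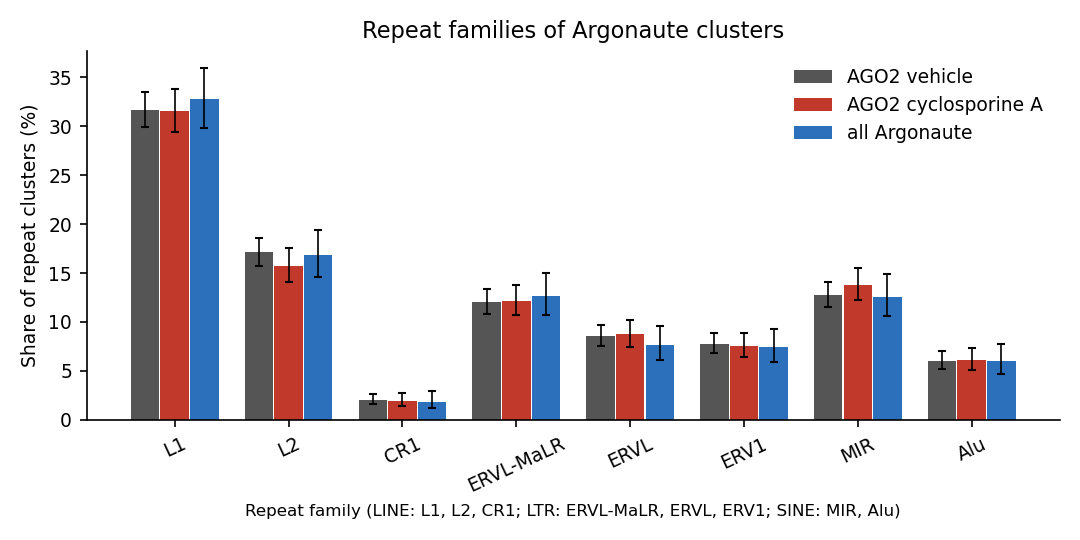
Share of repeat clusters (%) in each of the 8 most frequent families, for the AGO2 vehicle, AGO2 cyclosporine A and all-Argonaute lists. Bars are shares and lines are 95% Wilson intervals; L1 holds 31.7%, 31.6% and 32.8%, and the intervals of the 3 lists overlap for every family shown.

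Position differed between families. Of Alu clusters 66.0% in AGO2 vehicle and 57.7% in AGO2 cyclosporine A lay in introns, against 28.7% and 28.8% of ERVL-MaLR clusters. L1 stood between them with 40.05% and 42.0%, and so did L2 with 52.9% and 52.0%. Over all members the intronic share was 43.0% in both AGO2 lists and 43.1% in all Argonaute. The plus strand of the genome held 51.1%, 51.2% and 49.9%. Median length was 20, 20 and 19 bases.

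Repeat clusters were of middling score. Their median score percentile, counted over the whole list, was 48.3 in AGO2 vehicle, 50.7 in AGO2 cyclosporine A and 50.3 in all Argonaute, and intron and intergenic clusters outside repeats had medians of 51.0, 50.7 and 50.3. The top 10% of scores included 249 (9.46%), 153 (8.96%) and 85 (9.30%) of the members. By comparison, clusters annotated as ribosomal RNA had a median percentile of 98.1 in AGO2 vehicle and 98.9 in AGO2 cyclosporine A. Among the 7 families with over 100 clusters in the vehicle list the median percentile ran from 44.8 for ERV1 to 52.7 for ERVL, and the share in the top 10% from 6.92% for Alu to 12.6% (9.41 to 16.7%) for ERVL-MaLR.

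Recurrence between the AGO2 lists was partial. A cluster was counted as present in another list when at least 1 base overlapped on the same strand. Of the AGO2 vehicle repeat clusters 842 of 2631, 32.0% (30.2 to 33.8%), were in the AGO2 cyclosporine A list, and 840 of 1708 in the reverse direction, 49.2% (46.8 to 51.6%). Outside repeats the shares were 31.7% and 49.8%, and for 3' UTR clusters, taken from all chromosomes, 22.7% (19.9 to 25.9%) and 32.1% (28.2 to 36.2%). In all 842 overlapping pairs the shared bases were identical, which follows from sequences taken from the genomic interval and says nothing about the reads. No pair overlapped on opposite strands. All 3 lists held 325 vehicle repeat clusters (12.4%), and 1689 (64.2%) were in the vehicle list only. Presence depends on list length, and the AGO2 lists held 56985 clusters in vehicle and 36812 with cyclosporine A. The shares of the 2 directions are therefore not comparable, and whether absence from a list reflects treatment was not tested.

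Clusters of higher score recurred more often. In vehicle, presence in the cyclosporine A list went from 12.2% in the lowest score bin through 16.9% and 31.1% to 69.2% (65.6 to 72.7%) in the highest. The reverse shares were 25.3%, 34.2%, 55.4% and 81.5%. Without the clusters that share 14 bases with another cluster of their list, the highest bin still stood at 64.9% and 77.6%, and over all bins the shares fell to 25.2% and 41.2%. Alu clusters recurred most often among the 7 larger families, with 60 of 159 in vehicle (37.7%, 30.6 to 45.5%) and 60 of 104 with cyclosporine A (57.7%, 48.1 to 66.7%). ERV1 clusters were lowest at 27.5% (21.8 to 33.9%) and 43.4% (35.2 to 52.0%). The intervals of Alu and ERV1 overlapped in both lists.

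**Figure D3:**
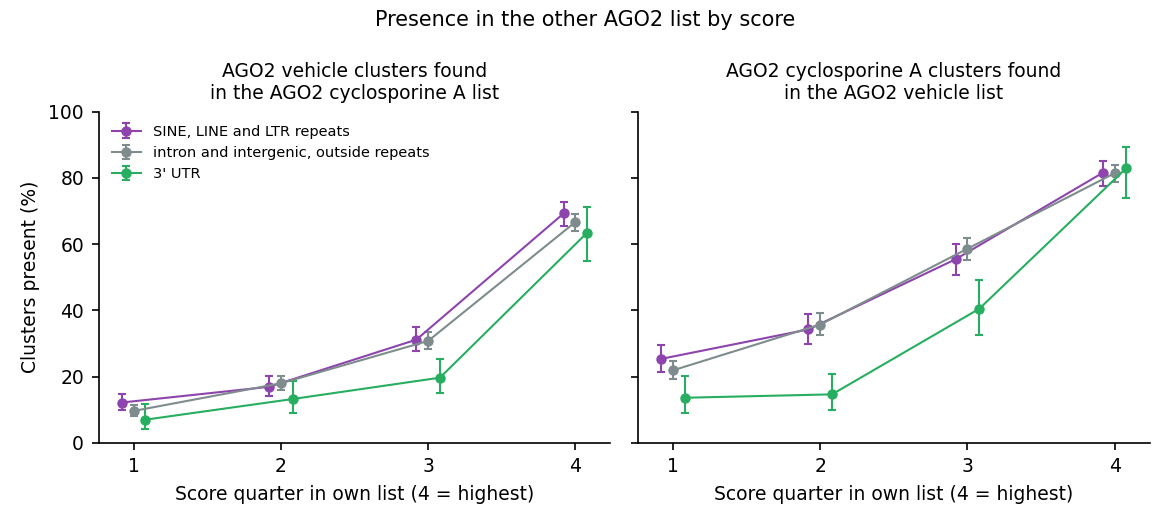
Share of clusters (%) of one AGO2 list that overlap a cluster of the other, by score bin in their own list. Points are shares and bars are 95% Wilson intervals; repeat clusters reach 69.2% and 81.5% in the highest bin and lie near the intron and intergenic clusters outside repeats.

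Strand against the host gene was read for intronic members whose gene had a strand in the RefSeq table. On the strand of the host gene lay 498 of 940 repeat clusters in AGO2 vehicle, 53.0% (49.8 to 56.2%), 327 of 611 in AGO2 cyclosporine A, 53.5% (49.6 to 57.4%), and 174 of 325 in all Argonaute, 53.5% (48.1 to 58.9%). Each of these intervals included an even split. Where the host gene passed the mRNA filter, the AGO2 vehicle share was 55.1% (50.9 to 59.2%), an interval above an even split. The AGO2 cyclosporine A share was then 52.7% (47.6 to 57.7%) and the all-Argonaute share 51.4% (44.7 to 58.1%). Where the host gene did not pass, the shares were 51.2% (45.5 to 56.7%), 54.8% (47.6 to 61.7%) and 56.7% (46.4 to 66.4%). Only in vehicle was the share higher where the host passed. Intronic clusters outside repeats stood at 54.0% (51.9 to 56.1%), 55.3% (52.7 to 57.9%) and 51.2% (47.7 to 54.8%), and the first pair of intervals lay above an even split. In 3' UTRs the share was 63.4% (59.5 to 67.2%), 69.0% (64.5 to 73.2%) and 57.1% (49.2 to 64.6%).

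Among the 7 larger families Alu had the highest share on the host strand in each list, with intervals that overlapped those of most other families. The counts were 55 of 88 (62.5%, 52.1 to 71.9%), 31 of 49 (63.3%, 49.3 to 75.3%) and 24 of 30 (80.0%, 62.7 to 90.5%). L1 clusters stood at 51.5%, 47.3% and 48.5%. ERVL-MaLR clusters reached 61.8% (49.9 to 72.4%) in vehicle and 60.9% (46.5 to 73.6%) with cyclosporine A, close to Alu, and 50% in all Argonaute. MIR clusters reached 63.2% (50.2 to 74.5%) in all Argonaute. Without clusters that shared 14 bases with another cluster, Alu fell to 29 of 51 (56.9%, 43.3 to 69.5%) and 17 of 31 (54.8%, 37.8 to 70.8%), which include an even split. These are the AGO2 lists, since sequences of the all-Argonaute list were not used.

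**Figure D4:**
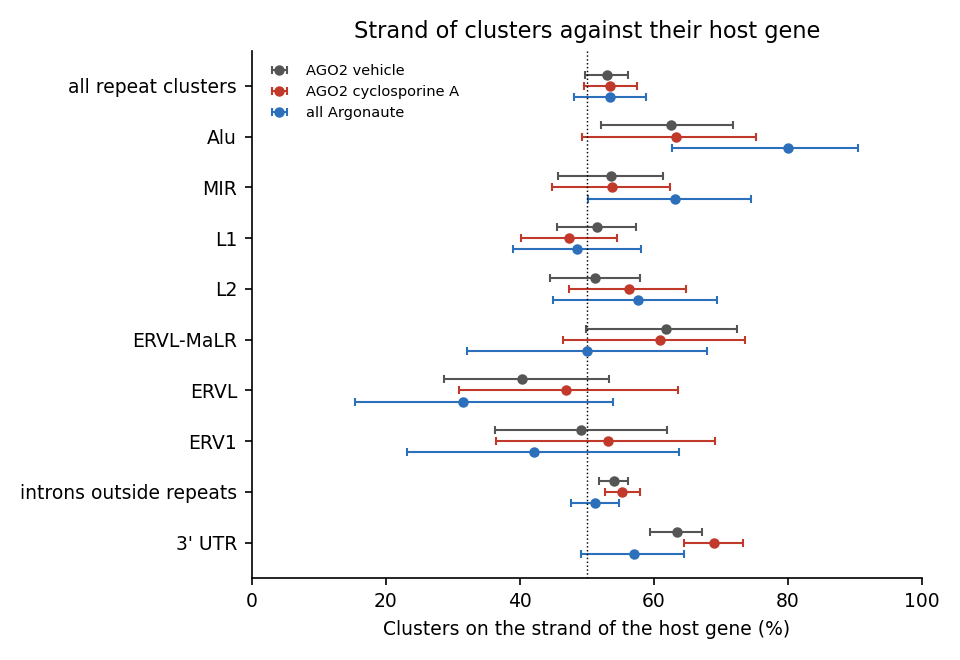
Share of intronic clusters (%) on the strand of their host gene, by repeat family and list, with intronic clusters outside repeats and 3' UTR clusters for comparison. Points are shares, bars are 95% Wilson intervals and the dotted line marks an even split; Alu lies at 62.5%, 63.3% and 80.0%, and 3' UTR clusters at 63.4%, 69.0% and 57.1%.

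Repeat clusters often lay in genes with little or no mRNA, about as often as intronic clusters outside repeats. Shares here are over clusters. Of intronic vehicle repeat clusters in genes with a row in the mRNA table, 612 of 985 (62.1%, 59.1 to 65.1%) had a host that passed the filter on low counts, and with cyclosporine A 408 of 644 did (63.4%). For intronic clusters outside repeats the shares were 63.3% (61.3 to 65.2%) and 65.0% (62.6 to 67.4%). For 3' UTR clusters the shares were 80.2% (77.2 to 83.0%) and 81.2%. Alu clusters were near 3' UTRs in vehicle, with 72 of 91 (79.1%, 69.7 to 86.2%), and had 37 of 52 (71.2%) with cyclosporine A. This was not kept to Alu: ERV1 clusters had 35 of 52 (67.3%) and 24 of 30 (80%). In all Argonaute Alu had 20 of 30 (66.7%), beside 67.7% of all repeat clusters, and ERV1 had 16 of 17 (94.1%). In the AGO2 lists ERVL clusters were lower, with 26 of 60 (43.3%, 31.6 to 55.9%) and 18 of 37 (48.6%). Of all genes in the count matrix that matched RefSeq, 56.7% passed the filter.

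The 857 host genes of the AGO2 lists mostly held few members. Summed over both lists, so that a place found in both counts once for each, 434 held 1 cluster, 337 held 2 to 4 and 86 held 5 or more. DAB1, an adaptor of reelin signalling in neurons, had the most, 10 in vehicle and 8 with cyclosporine A, 10 of them in SINEs. It had 0 counts in all 8 mRNA libraries, which allows at most 0.426 CPM in the deepest library and 0.757 CPM in the shallowest, and 6 of its 18 clusters lay on its strand. AGBL4, a carboxypeptidase that trims glutamate chains on tubulin, had 16 clusters, 7 on its strand, and also 0 counts in every library. THSD7B had 17 clusters, 9 on its strand, with 0.142 and 0.368 CPM in vehicle replicates 1 and 2 and 0 in the other libraries. LRP1B, a member of the low-density lipoprotein receptor family, had 16 clusters and from 0.452 to 3.91 CPM over the 8 libraries.

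Members with a seed site were few. The 10 most abundant seeds made up 86.1% of the vehicle miRNA CPM, and a site was the exact complement of positions 2 to 8. Mature sequences of the miRNAs whose sites occur in the clusters printed below are from RefSeq (GRCh38.p14), with the seed in capitals.
hsa-miR-21-5p: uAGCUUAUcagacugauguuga
hsa-miR-222-3p: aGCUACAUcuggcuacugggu
hsa-miR-205-5p: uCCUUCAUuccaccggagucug
hsa-miR-181a-5p: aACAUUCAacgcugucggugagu
Sites occurred in 36 of 2631 vehicle repeat clusters, 1.37% (0.990 to 1.89%), and in 17 of 1708 with cyclosporine A, 1.00% (0.622 to 1.59%). Outside repeats the shares were 1.37% and 1.01%. In 3' UTR clusters they were 1.60% (0.920 to 2.78%) and 1.32% (0.641 to 2.70%), with intervals that overlapped those of repeats. With a site defined instead as positions 2 to 7 followed by A, 28 vehicle repeat clusters (1.06%, 0.737 to 1.53%) and 16 vehicle 3' UTR clusters (2.14%, 1.32 to 3.45%) held one. With cyclosporine A the shares were then 1.00% in repeats and 1.70% (0.896 to 3.20%) in 3' UTRs. Per kilobase of cluster sequence, repeats held 0.678 sites in vehicle and 0.487 with cyclosporine A, and 3' UTR clusters 0.772 and 0.630.

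The miR-205-5p site was the most frequent in vehicle repeats, in 12 clusters, followed by miR-181a-5p in 7 and miR-10a-5p in 4. In that list it also led the 10 seeds outside repeats, in 26 clusters, and in 3' UTRs, in 6. Its lead in vehicle was thus not a trait of repeats. With cyclosporine A it was in 5 repeat clusters, 6 outside repeats and 1 in 3' UTRs, and the miR-10a-5p site was in 0 repeat clusters. The most abundant miRNA, miR-21-5p, had 595716 CPM (SD 55875, n = 4) and 2 sites. No repeat cluster of the vehicle list held a let-7 site, which allows a share of up to 0.114%, although let-7i-5p alone had 40324 CPM. The let-7 site was also in 0 of the 748 3' UTR clusters and 0 of the 5110 clusters outside repeats, so its absence was not a trait of repeats. In all, 9 vehicle repeat clusters with a site overlapped a cyclosporine A cluster holding the same site. Overlapping clusters carry the same genomic bases, so this reflects shared position and not a separate recurrence of the site. The 5 with the highest vehicle scores are shown as read in the vehicle list, with the site in capitals.
MIRb in DAB1, miR-21-5p site, chr1:58652775-58652793, plus strand: ttaaATAAGCTgtcctgcg
MIR in ZBTB40, miR-222-3p site, chr1:22833587-22833610, plus strand: cggATGTAGCataatggttaggac
L3 between genes, miR-205-5p site, chr1:222051585-222051606, plus strand: tggaggATGAAGGtacctgaaa
L1MCa between genes, miR-205-5p site, chr2:103698987-103699011, minus strand: gtgttctgtaagtctATGAAGGtct
HAL1 between genes, miR-181a-5p site, chr2:342671-342691, minus strand: cgagtgtagaggTGAATGTtg
The L1MCa cluster was the highest of these, with scores of 2455 in vehicle and 2602 with cyclosporine A, and it and the MIRb cluster in DAB1 were also in the all-Argonaute list. The MIRb cluster scored 157 and 184.

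Hairpins of miR-28, miR-95, miR-151a and miR-708 derive from L2 elements, those of the miR-548 family from MADE1, a small DNA transposon, and a few others from Alu. The seed site of miR-28-3p was in 0 of 450 L2 clusters in vehicle and 0 of 269 with cyclosporine A, and that of miR-708-5p in 0 and 1. In other repeat clusters the miR-28-3p site was in 1 of 2181 and 2 of 1439, and the miR-708-5p site in 1 and 0. These sites were thus rare in all repeats, and their scarcity was not a trait of L2. Sites of miR-151a are not given here. Of 104 miRNAs on the list, 15 passed the filter on low counts: 7 L2-derived, 8 of the miR-548 family and none of the 16 Alu-derived, of which 11 had no count. With edgeR's quasi-likelihood test and Benjamini-Hochberg adjustment over all 470 miRNAs, 0 of the 15 passed in either direction, where 4.89% of all miRNAs were higher with cyclosporine A and 6.38% lower. Over all miRNAs 10.4% were called with groups that did not overlap, and 11.3% were called in either direction. At an unadjusted p under 0.05, 3 did, and DESeq2 called 1. The shares of all miRNAs under these rules are not given here, so neither count can be read as an excess. The median log2 fold change was -0.01, against 0.01 over all miRNAs.

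The L2-derived miR-151a-3p was the most abundant, at 6065, 5750, 6315 and 5394 CPM in vehicle and 4623, 5536, 5471 and 6460 CPM with cyclosporine A. Its groups overlapped. In miR-28-3p the vehicle libraries had 1473, 1217, 1433 and 1156 CPM and the cyclosporine A libraries 1025, 999, 1074 and 1082 CPM. These groups did not overlap, and its log2 fold change was -0.34 (SE 0.11) with an adjusted p of 0.0637 in edgeR. Under DESeq2 the adjusted p was 0.035, and in edgeR without vehicle replicate 4 it was 0.046. The groups of miR-708-5p (814 and 846 CPM), miR-28-5p (701 and 697 CPM), miR-708-3p (204 and 208 CPM) and miR-151a-5p (54.5 and 50.4 CPM) all overlapped.

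The mRNA of host genes was called changed with cyclosporine A in a share near that of all genes. Of 12855 genes tested, 66.9% passed an adjusted p of 0.05 in edgeR's quasi-likelihood test, 33.3% higher with cyclosporine A and 33.5% lower. Of 744 host genes matched to the count table, 489 passed the filter on low counts, and 331 were called, 186 higher (38.0%) and 145 lower (29.7%). Their median log2 fold change was 0.07, against 0.00 over all genes. Of hosts with clusters in both AGO2 lists, 145 of 211 were called, with clusters in the vehicle list only 138 of 194, and in the cyclosporine A list only 48 of 84; these groups were not tested against each other. In bulk RNA, fewer cells of a type and less RNA per cell cannot be told apart. A count in a host gene can include reads of an overlapping gene on the other strand, since no source used here says whether counting used strand.

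PAPPA2, a protease that releases insulin-like growth factors from their binding proteins, rose the most among host genes with at least 50 counts on average and groups that did not overlap. It had 10.8, 9.39, 8.05 and 9.71 CPM in vehicle and 75.7, 75.5, 76.8 and 61.6 CPM with cyclosporine A, a log2 fold change of 2.92 (SE 0.11, edgeR adjusted p = 6.0e-32). Every cyclosporine A library lay far above every vehicle library. Its 2 clusters, in L1MA3 and L2a, were in the vehicle list and on its strand. DUSP10, a MAP kinase phosphatase with a MIRb cluster in vehicle, had 41.1, 37.2, 35.1 and 44.3 CPM in vehicle and 249, 231, 189 and 225 CPM with cyclosporine A. The groups were again well apart, with a log2 fold change of 2.50 (SE 0.08). AFF3, a nuclear protein of the AF4 family, rose by 1.91, BCAR3, an adaptor of Src signalling, by 1.75 and KCNH1, a voltage-gated potassium channel, by 1.72 on the log2 scale.

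STAT4, a transcription factor of cytokine signalling with an AluSp cluster in vehicle, fell the most. Its vehicle libraries had 26.4, 23.4, 24.3 and 23.3 CPM and its cyclosporine A libraries 1.65, 0.977, 1.15 and 1.28 CPM, a log2 fold change of -4.23 (SE 0.20, edgeR adjusted p = 3.0e-26). TNS1, a focal adhesion protein with 2 clusters in vehicle and 3 with cyclosporine A, had 32.2, 27.6, 26.04 and 28.9 CPM against 3.497, 2.93, 2.53 and 4.60 CPM. Both genes had every cyclosporine A library below every vehicle library. VAV3, with 4 clusters in vehicle and 0 with cyclosporine A, fell by 2.32 on the log2 scale. COBLL1 fell from 593 CPM (SD 49.0, n = 4) to 120 CPM (SD 3.73, n = 4), and PDZK1IP1, a small membrane protein of the proximal tubule, from 443 CPM (SD 9.15, n = 4) to 108 CPM (SD 2.46, n = 4). Among all 331 called hosts 275 had groups that did not overlap, 56.2% of the 489 tested, where 56.4% of all genes were called and did not overlap.

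**Figure D5:**
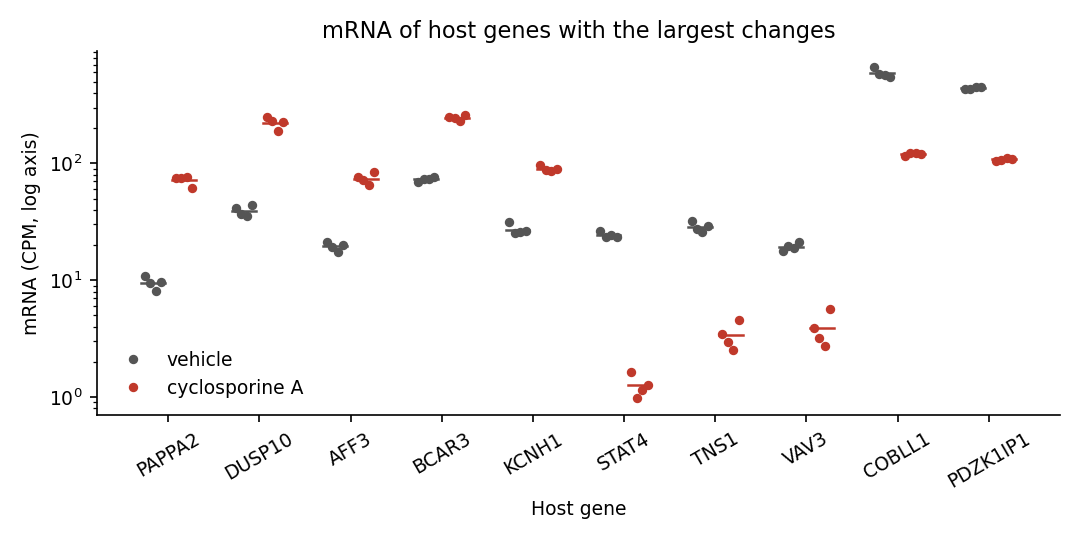
mRNA (CPM, log axis) of the 5 host genes with the largest rises and the 5 with the largest falls, in 4 vehicle and 4 cyclosporine A libraries. Points are libraries and lines are group means; PAPPA2 goes from a mean of 9.48 to 72.4 CPM and STAT4 from 24.3 to 1.26 CPM.

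The hosts of the highest-scoring clusters went different ways. FMNL2, a formin that builds actin filaments and holds the top L1ME3B cluster and an MLT1E cluster of the AGO2 cyclosporine A list, had 125, 111, 103 and 104 CPM in vehicle and 193, 215, 214 and 213 CPM with cyclosporine A. The groups did not overlap, and it rose by 0.90 on the log2 scale (SE 0.06, edgeR adjusted p = 1.2e-18). Its L1ME3B cluster lay on the strand opposite to the gene and its MLT1E cluster on the same strand. ENAH, an actin regulator, rose by 0.24 (SE 0.06, edgeR adjusted p = 0.00047). PADI3, a peptidylarginine deiminase, fell by 1.67 (SE 0.25) from 6.64 to 2.04 CPM. Its MIRb cluster stood at score percentile 99.13 in the vehicle list and 98.97 in the cyclosporine A list. PLPPR5, listed as LPPR5, fell by 1.497 (SE 0.33) on the log2 scale from 4.11 to 1.52 CPM. HHAT had 21.1 and 21.6 CPM (adjusted p = 0.823), and its groups overlapped.

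Most genes on a list of factors that restrict mobile elements and retroviruses were lower with cyclosporine A. Of 16 such genes 13 passed the filter, 11 fell and 0 rose, with a median log2 fold change of -0.40, where 33.5% of all genes fell. The list was chosen with earlier results of these data known. APOBEC3B, a cytidine deaminase that edits retroviral DNA, had 22.8, 21.0, 26.3 and 25.1 CPM in vehicle and 12.1, 11.0, 8.28 and 12.02 CPM with cyclosporine A, a log2 fold change of -1.12 (SE 0.13, edgeR adjusted p = 5.3e-11). Its groups did not overlap. TREX1, an exonuclease that clears cytosolic DNA, fell by 0.89 (SE 0.14), MOV10, an RNA helicase that restricts L1, by 0.44 (SE 0.06), and BST2, which tethers budding viruses, by 0.37 (SE 0.06). APOBEC3G and RNASEH2B did not pass. In every alternative fit 10 to 12 of the list fell and 0 rose. APOBEC3B and its relatives are closely alike in sequence, and how the authors' counting split shared reads is not given in the sources used here.

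Chromatin silencing genes moved both ways: of 19 tested, 4 rose and 8 fell, with a median log2 fold change of 0.01. The 12 called are 63.2% of the list, near the 66.9% over all genes. ATF7IP, a partner of the histone methyltransferase SETDB1, rose by 0.91 (SE 0.08) from 47.0 to 88.3 CPM, and the DNA methyltransferase DNMT3B by 0.42 (SE 0.06). UHRF1, which brings maintenance methylation to replicated DNA, fell by 0.88 (SE 0.10), and HELLS, a chromatin remodeller, by 0.75 (SE 0.10). Of 20 genes whose products bind Alu or double-stranded RNA, 4 rose and 7 fell, 20% and 35%, beside 33.3% and 33.5% of all genes. DICER1, which cuts miRNA precursors, had 146, 131, 120 and 129 CPM in vehicle and 239, 241, 271 and 228 CPM with cyclosporine A. It rose by 0.89 (SE 0.06, edgeR adjusted p = 1.7e-18) with no overlap between the groups. SFPQ and PSPC1, both proteins of nuclear paraspeckles, fell by 0.37 (SE 0.06) and 0.34 (SE 0.10), and TARBP2, the partner of DICER1, by 0.34 (SE 0.10). Of 8 genes whose products bind LINE RNA, SAFB (0.33, SE 0.06) and SAFB2 (0.29, SE 0.06) rose and HNRNPU and HNRNPM fell by 0.30 (SE 0.06) and 0.23 (SE 0.07), though the HNRNPM groups overlapped.

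Among the Argonaute genes, AGO2 (EIF2C2 in the table) rose from 18.2 CPM (SD 0.570, n = 4) to 44.2 CPM (SD 1.14, n = 4) and AGO3 (EIF2C3) from 11.1 to 21.9 CPM. AGO4 (EIF2C4) passed the threshold barely (-0.27, SE 0.12, edgeR adjusted p = 0.0455), and DESeq2 gave an adjusted p of 0.17. These mRNA values at 48 h stand beside an AGO2 cyclosporine A list at 24 h that held fewer clusters than the vehicle list, 36812 against 56985, and whether the depth of the PAR-CLIP libraries set that difference was not tested.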

How the data were processed

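The deposited PAR-CLIP lists give, per cluster, a position (hg19), strand, sequence, annotation and an integer score made by the authors; neither its unit nor the cluster caller is stated by any source at hand. Bowtie, TopHat, HTSeq, cutadapt, CASAVA 1.8.2 and DESeq2 are named in the submitters' processing notes. The mRNA and miRNA tables hold raw counts per gene or miRNA, as the authors deposited them. Positions are printed 1-based. Members and gene lists were chosen with earlier results of these data known.

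Overlaps, shares, score ranks and seed sites were computed in Python 3.11.15; Wilson intervals have a level of 95%. Sequences of the all-Argonaute list were not used because only 2692 of 19306 match their interval in length. Host genes were matched by RefSeq transcript, table rows by symbol or older symbol (21988 of 23368 table rows matched RefSeq), and their strand came from the RefSeq promoter table (GRCh38.p14), which gives names and strand only here. Of 2586 miRNAs 2281 matched a RefSeq sequence and carried 97.6% of the vehicle CPM.

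Counts were tested with edgeR 4.0.16 (filterByExpr, TMM, quasi-likelihood test, Benjamini-Hochberg over all features), tested on simulated data first. Replicates of a group differed by more than sampling noise. Alternatives were DESeq2 1.42.0, RLE factors, no filter, a replicate block and leaving out each library. Named clusters were the 3 highest of each class per AGO2 list and up to 6 in all 3 lists; named genes were their hosts, the 4 hosts with most clusters, the 5 largest rises and falls among called hosts, and up to 4 called genes per list by p.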

Additional observations from a re-analysis of the deposited data

Results flagged for a closer look

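Of 100 groups of 4 libraries examined over the named genes and repeat-derived miRNAs, 7 had 1 library far from the other 3, and chance gives about 1 in 20. In cyclosporine A these were PAPPA2 replicate 4 at 61.6 CPM (others 75.5 to 76.8), FMNL2 replicate 1 at 193 CPM (others 213 to 215), ENAH replicate 3 at 137 CPM (others 148), PSPC1 replicate 4 at 29.4 CPM (others 23.0 to 23.7), HNRNPM replicate 3 at 119 CPM (others 138 to 140) and ATF7IP replicate 1 at 92.1 CPM (others 86.7 to 87.4). In vehicle it was KCNH1 replicate 1 at 31.5 CPM (others 25.4 to 26.2). The calls of these genes stayed past the threshold without the library named.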

How the results depend on the processing

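Restricting to clusters at or above the list median score moved the repeat share of AGO2 vehicle to 30.6%. It moved presence of vehicle clusters to 39.7% in AGO2 cyclosporine A and 19.5% in all Argonaute, of cyclosporine A clusters to 59.1% in vehicle and 26.2% in all Argonaute, and of all-Argonaute clusters to 53.7% and 48.7% in the AGO2 vehicle and cyclosporine A lists. With the 20 most abundant seeds, sites were in 2.47% of vehicle and 1.81% of cyclosporine A repeat clusters, since more seeds were searched. Leaving out clusters that share 14 bases with another cluster of the list, an alternative chosen after seeing the data, kept 1557 vehicle and 1118 cyclosporine A members. The median score percentile became 40.7 and 43.2, presence in the other AGO2 list 25.2% and 41.2%, and presence in all Argonaute 12.3% and 17.2%. The other alternatives for shares, presence, score percentile, host strand and seed sites, leaving out clusters with 14-base matches to rRNA or tRNA clusters included, stayed within the 95% intervals. Asking for 16 shared bases in place of 14 took the share of repeat clusters with a shared stretch to 18.1% and 15.6%.

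Host genes called ran from 172 to 187 higher and from 134 to 143 lower without 1 library, and genes of the 5 transposon-related lists from 12 to 14 higher and from 25 to 28 lower. Over all settings host genes ran from 172 to 197 higher and from 128 to 157 lower. With no filter 197 and 157 of 649 tested hosts were called, and under DESeq2 182 and 128 of 649. Of the repeat-derived miRNAs, miR-28-3p became the 1 called lower under RLE factors, DESeq2 and the replicate block, and from 0 to 1 were called without 1 library (vehicle replicate 4). AGO4 (EIF2C4) lost its call with no filter, under DESeq2, under the block and without vehicle replicate 1 or 2 or cyclosporine A replicate 1, 2 or 4. Replicate numbers did not pair every sample. Correlations of the deviations of same-numbered libraries ran from -0.08 to 0.03 in mRNA and from -0.06 to 0.34 in miRNA. In miRNA the highest was that of replicates 2 (0.34), and replicates 1 and 3 had 0.04 and -0.06. Replicates 4 had 0.15, less than the differently numbered pair of vehicle replicate 1 and cyclosporine A replicate 3 (0.18). With the replicate block 186 host genes were called higher and 146 lower, and the calls it changed were those of AGO4, miR-28-3p, let-7i-5p (adjusted p = 0.00832) and miR-222-3p (adjusted p = 0.0267). Depth limits what can be said of hosts at 0 counts, and 1 list per group leaves no replicate error for clusters.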
